A study of Mus musculus with 36 samples.

Results

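The comparison described here set the RNA of old naive hippocampus against that of young naive hippocampus. Its 6 libraries, of 36 samples in the series, were chosen from their titles: 67, 69 and 71 are old naive and 79, 81 and 83 are young naive. The mice were of the inbred strain C57BL/6J, aged 15.5 months in the old and 2.5 months in the young group, and carried no engineered allele that the labels name. Naive mice had not gone through fear conditioning, the training in which mice learn to link a place with foot shocks. The other RNA libraries of the study, 3 old and 3 young, came from conditioned mice whose brains were frozen 30 min after training. They serve here as a second comparison of the ages. The labels do not say whether the 3 libraries of a group came from separate animals, and p-values then speak only of the spread among these samples, which may be technical.

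The hippocampus is the brain region that forms memories of places and events, and its dentate gyrus is among the few places where neurons are still born in adult rodents. Its RNA is a mixture from neurons, astrocytes, myelin-forming oligodendrocytes, microglia, which are the resident immune cells of the brain, and blood vessels. In bulk tissue, fewer cells of a type cannot be told apart from less RNA per cell. Aging of the rodent hippocampus is known for more reactive microglia and astrocytes, for rising complement expression and for a steep drop in the birth of neurons.

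The deposited read counts of the 6 libraries summed to between 9410843 and 12857196, and 14405 genes had enough counts to be tested. Expression is given as CPM, a count relative to the library's total after scaling of the libraries to each other, and a difference is the log2 of old over young. Libraries of 1 group differed by more than counting error, with no sign of a duplicate. The first principal component, with 36.1% of the variance, did not separate the ages, and the second, with 22.8%, did. 2 kinds of RNA varied between libraries of the same age. For the choroid plexus, the tissue that makes cerebrospinal fluid, the mean log2 CPM of 16 marker genes was 3.45, 4.99 and 2.16 in old libraries 67, 69 and 71. It was 2.43, 5.46 and 4.53 in young libraries 79, 81 and 83. The same mean over 7 RNAs that stay in the nucleus, such as Malat1, was 8.77, 8.94 and 9.34 in the old and 9.79, 8.89 and 9.60 in the young libraries. Slc17a7, the vesicular glutamate transporter of excitatory neurons, was at 1183 CPM or more in each of the 6 libraries, as the tissue label requires.

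Of the 14405 genes, 8 passed the edgeR quasi-likelihood test at an adjusted p under 0.05, or 0.0555% of those tested. 5 rose in old mice (0.0347%) and 3 fell (0.0208%). At an unadjusted p under 0.05, 720 genes stood higher (5.00%) and 761 lower (5.28%). In 1022 genes all old libraries lay above all young ones (7.09%), and in 914 all lay below (6.35%). The median log2 difference of all genes was -0.01, and 48.4% of them had a positive one. DESeq2, another count model, called 16 genes higher and 18 lower, which include all 8. The count of rises was 1 without old naive 67 or 69 or without young naive 79 or 83. It was 2 without old naive 71, old conditioned 61 or 63 or young conditioned 75, 3 without old conditioned 65 and 8 without young naive 81. The count of falls was 0 without old naive 67 or 69, young naive 79 or 83, old conditioned 63 or young conditioned 75, 1 without old naive 71 or old conditioned 61 or 65, and 14 without young naive 81. The 1 fall called without old naive 71 was not among the 3. C4b passed under 22 of 23 other settings, Ctss under 16, Unc13b under 14, Pcdhb9 under 12, Kcnt1 under 11, BC061194 under 9, Nup188 under 7 and Laptm5 under 5. Each of the 8 kept its direction under all 23.

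Values below are in the order 67, 69, 71 for old and 79, 81, 83 for young libraries. The rise with the lowest p was that of C4b, coding for complement component C4, a blood and brain protein that tags targets for engulfment. C4b stood at 66.1, 72.2 and 68.2 CPM in the old and at 32.3, 41.6 and 35.7 CPM in the young libraries. Every old library was thus well above every young one. The rise was 1.88-fold (log2 0.91, SE 0.102, edgeR adjusted p = 0.00208). C4a, a near-identical neighbour of C4b, held only 4 to 35 counts a library against 285 to 838 for C4b. No source used here says how reads that match both genes were counted. The same holds for strand, and RefSeq places small other loci on the spans of Ctss, Laptm5, Nup188 and Unc13b.

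2 lysosomal genes of microglia rose as well. Ctss encodes cathepsin S, a protease of the lysosome that microglia use to process antigens. It stood at 55.5, 60.9 and 53.97 CPM in old and 40.1, 38.2 and 40.9 CPM in young libraries, a tight young group with all old libraries above it (log2 0.52, SE 0.0714, edgeR adjusted p = 0.0151). The level of Laptm5, whose protein sits in lysosome membranes of immune cells, was 33.2, 32.2 and 34.0 CPM against 22.9, 25.05 and 21.1 CPM (log2 0.52, SE 0.0902, edgeR adjusted p = 0.0499). Here the old libraries were the tight group. Pcdhb9, a protocadherin of the cell surface of neurons, rose from 17.3, 16.2 and 16.7 CPM in young to 24.5, 24.7 and 27.3 CPM in old libraries (log2 0.61, SE 0.0943, edgeR adjusted p = 0.0308). BC061194 rose from 1.38, 0.993 and 1.08 CPM to 2.92, 3.58 and 3.94 CPM (log2 1.61, SE 0.267, edgeR adjusted p = 0.0446). It had the largest fold of the 8 and by far the lowest level.

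The 3 genes that fell belong to neurons or to the nuclear envelope. Unc13b encodes Munc13-2, which primes synaptic vesicles for release. Its level fell from 68.0, 61.5 and 65.3 CPM in young to 46.1, 47.4 and 46.4 CPM in old libraries (log2 -0.48, SE 0.0738, edgeR adjusted p = 0.0308). Kcnt1, a sodium-activated potassium channel, fell from 42.9, 37.6 and 44.0 CPM to 23.8, 29.8 and 27.8 CPM (log2 -0.61, SE 0.0979, edgeR adjusted p = 0.0330). Nup188, a scaffold protein of the nuclear pore, fell from 29.2, 25.9 and 26.8 CPM to 19.2, 18.3 and 19.7 CPM (log2 -0.51, SE 0.0865, edgeR adjusted p = 0.0472). In all 3 the lowest young library lay above the highest old one.

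**Figure D1:**
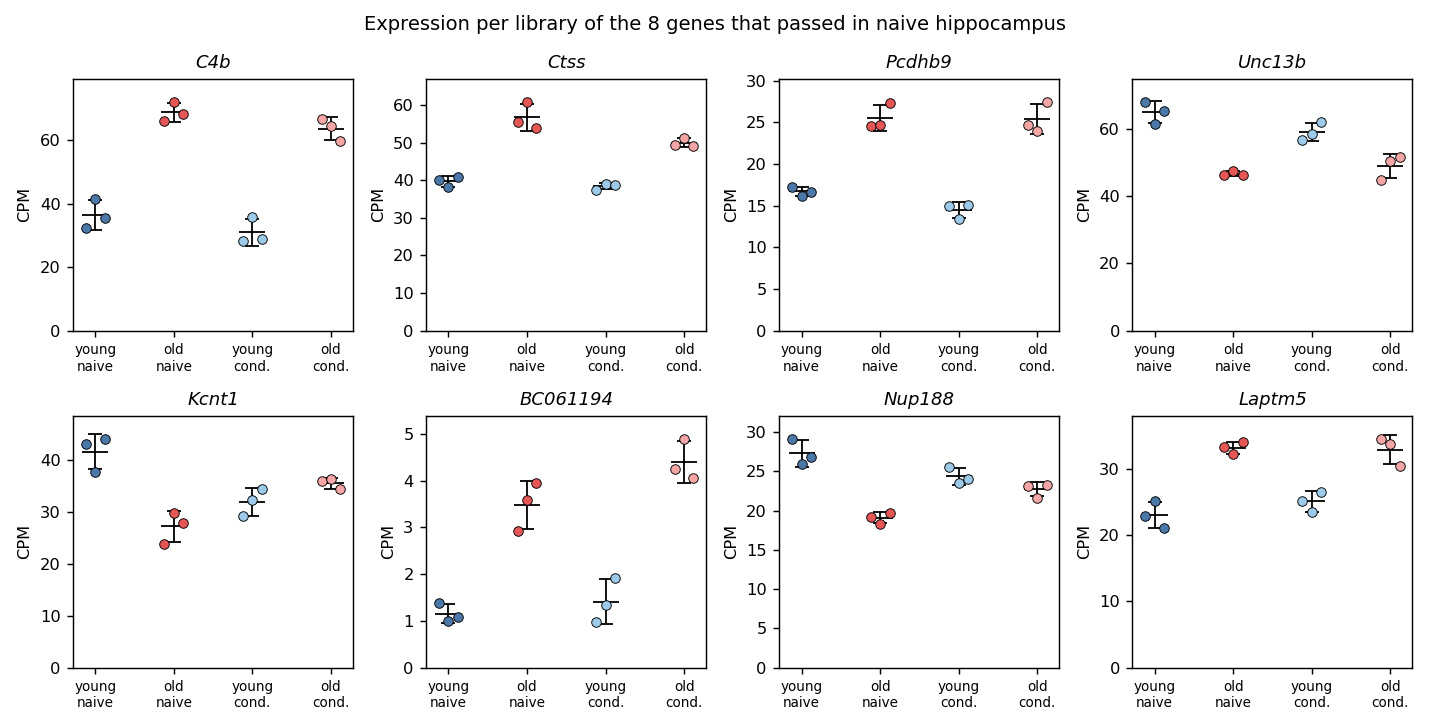
CPM of the 8 genes that passed in naive mice (vertical axis from 0), for young naive, old naive, young conditioned and old conditioned libraries. Each point is a library, and bars give the mean and SD of 3. C4b sits at 66.1 CPM or more in old naive and 41.6 CPM or less in young naive libraries. Kcnt1 has its highest values in the young naive group and overlaps between the ages in conditioned mice.

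The starts of 3 of these genes are shown because they differ in their CG content and in their H2A.Z, a histone variant that the study also mapped. The sequences are RefSeq bases of build GRCm38.p6, plus strand, 5′ to 3′, ending 1 base before an annotated start, and capitals mark CG dinucleotides. Of the 8 genes, 4 matched a plus-strand entry in the promoter table, and minus-strand entries were not used. The Unc13b stretch is chr4:43058703-43058952, at a start inside the gene, the Nup188 stretch is chr2:30286166-30286406 and the Ctss stretch is chr3:95526536-95526785.
Unc13b: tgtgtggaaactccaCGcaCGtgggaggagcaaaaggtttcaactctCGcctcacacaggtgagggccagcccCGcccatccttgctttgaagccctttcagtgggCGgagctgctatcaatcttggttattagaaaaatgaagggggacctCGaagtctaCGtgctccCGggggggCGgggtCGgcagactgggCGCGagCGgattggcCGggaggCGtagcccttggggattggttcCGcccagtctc
Nup188: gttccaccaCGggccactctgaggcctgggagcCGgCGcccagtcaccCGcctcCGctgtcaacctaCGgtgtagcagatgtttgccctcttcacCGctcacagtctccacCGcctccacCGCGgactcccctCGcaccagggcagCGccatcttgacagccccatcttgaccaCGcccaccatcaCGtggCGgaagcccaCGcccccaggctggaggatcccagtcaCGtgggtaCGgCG
Ctss: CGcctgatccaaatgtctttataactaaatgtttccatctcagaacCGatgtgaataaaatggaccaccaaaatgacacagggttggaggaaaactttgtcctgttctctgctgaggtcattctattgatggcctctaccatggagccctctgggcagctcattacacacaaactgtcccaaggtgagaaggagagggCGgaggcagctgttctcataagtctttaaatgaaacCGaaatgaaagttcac
The Unc13b stretch holds 16 CG dinucleotides and that of Nup188 19. Ctss has 4, and the unprinted window of Laptm5, also at a start inside the gene, has 5. The median over the 250 bases before the start of 32851 promoters in the table was 6. At least 16 were found in 25.4% of them and at least 19 in 19.7%. In the authors' deposited table an H2A.Z peak lies over the Unc13b and Nup188 windows and none over those of Ctss and Laptm5. Any peak lies over 40.5% of the promoters.

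Microglial genes stood higher in old naive mice nearly throughout. All 16 genes that mark microglia as a cell type had a positive difference, with a median of 0.22 against -0.01 for all genes. None passed in edgeR, DESeq2 or limma voom. At an unadjusted p under 0.05, 9 stood higher and 0 lower, and in 8 all old libraries lay above all young ones. For this list and those below, the shares over all genes were 5.00% higher and 5.28% lower at that p. Without overlap they were 7.09% higher and 6.35% lower. Tmem119, a surface protein specific to microglia, stood at 19.2, 21.6 and 19.5 CPM in old and 13.7, 17.6 and 16.0 CPM in young libraries (log2 0.34). The purine receptor P2ry13 and the orphan receptor Gpr34 had differences of 0.47 and 0.50. The mean log2 CPM of the 16 was 4.62, 4.64 and 4.55 in old and 4.37, 4.40 and 4.31 in young libraries, without overlap. The count was lowest, 13 of 16, without young library 83 (median 0.24). It was 14 without old library 69 (0.20) or with the nuclear RNA score in the fit (0.19), 15 without young library 79 (0.19) and 16 without both young 79 and 81 (0.28).

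Genes of microglial activation followed with a wider spread. Of 24 tested, 19 stood higher, Ctss and Laptm5 passed, and 6 higher and 0 lower had an unadjusted p under 0.05 (median 0.22). Gpnmb, a glycoprotein of lipid-laden and phagocytic cells, stood at 8.04, 7.79 and 9.50 CPM in old and 4.67, 5.50 and 4.47 CPM in young libraries (log2 0.79, SE 0.166, edgeR adjusted p = 0.138). The Toll-like receptor partner Ly86 had a difference of 0.65 (SE 0.177), and Fcer1g, an adaptor of Fc receptors, of 0.66. The receptor Trem2 and its adaptor Tyrobp had only 0.21 and 0.24, and Apoe and Axl 0.13 and 0.02. Without old library 69 the median was 0.12 and without young library 79 it was 0.15, each with 16 of 24 higher, and with the nuclear RNA score in the fit it was 0.08.

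Among 18 complement genes 14 stood higher, with a median of 0.15, and C4b alone passed. The median was 0.29 without old library 67 and 0.27 without young library 79, where 14 and 12 of 19 tested genes stood higher. The 3 genes of C1q, which starts the classical pathway and is made by microglia, stood alike: C1qa at 0.41 (SE 0.112), C1qb at 0.37 (SE 0.114) and C1qc at 0.37. C1qa held 25.5, 26.8 and 26.4 CPM in old and 15.6, 22.3 and 21.1 CPM in young libraries, with young 79 the lowest. C3ar1, the receptor for a fragment of C3, had a difference of 0.81, and C3 itself 0.09. Csmd1, a complement inhibitor of neurons, stood lower, at 174, 178 and 215 CPM against 254, 216 and 242 CPM (log2 -0.33, edgeR adjusted p = 0.303).

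Reactive astrocyte genes had a median of 0.18, with 15 of 21 higher, 1 of them past the test (C4b, which is on both lists), and 6 higher against 1 lower with an unadjusted p under 0.05. Gfap, the intermediate filament of astrocytes, stood at 349, 343 and 373 CPM in old libraries and at 232, 346 and 252 CPM in young ones (log2 0.36, SE 0.112, edgeR adjusted p = 0.305). The groups overlapped through young library 81. Osmr, the oncostatin M receptor, and the protease inhibitor Serpina3n had differences of 0.54 and 0.28, both without overlap. Among 20 general astrocyte markers the median was only 0.05, and it was 0.0068 without young library 79 and 0.11 without young library 81. Its lowest value over the 23 other settings was -0.031, and it kept its sign in 22 of them. The glycolytic enzyme Aldoc, at 488, 537 and 514 CPM against 414, 455 and 412 CPM, was the clearest of them (log2 0.26, edgeR adjusted p = 0.193). DESeq2 called 1 gene of that list, edgeR and limma voom 0.

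Other immune lists had smaller medians. Of 23 interferon-response genes 13 stood higher (median 0.02, 2 at an unadjusted p under 0.05), and of 15 antigen presentation genes 10 (0.11, also 2). Both directions depended on old library 69: without it 10 of 23 interferon genes stood higher (-0.059) and 7 of 15 antigen presentation genes (-0.0043). Without young library 81 it was 16 of 24 (0.16) and 14 of 15 (0.19), and without young library 79 12 of 24 (0.025) and 8 of 15 (0.023). Both counts of calls were 0 in edgeR, DESeq2 and limma voom. B2m, the light chain of class I molecules, stood at 43.8, 49.1 and 42.5 CPM in old and 40.3, 28.02 and 39.0 CPM in young libraries (log2 0.34). Zc3hav1, an antiviral zinc finger protein outside these lists, was next in order after the 8 genes, at 10.2, 10.2 and 9.15 CPM against 3.71, 6.03 and 4.63 CPM (log2 1.02, SE 0.177, edgeR adjusted p = 0.05001, just above the threshold). Of 32 lysosomal genes 21 stood higher, and the median of 0.04 was near that of all genes (0.0022 without young library 79, 0.12 without young library 81). The lowest lysosomal median over the 23 other settings was -0.024, and the sign stayed in 22 of them.

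**Figure D2:**
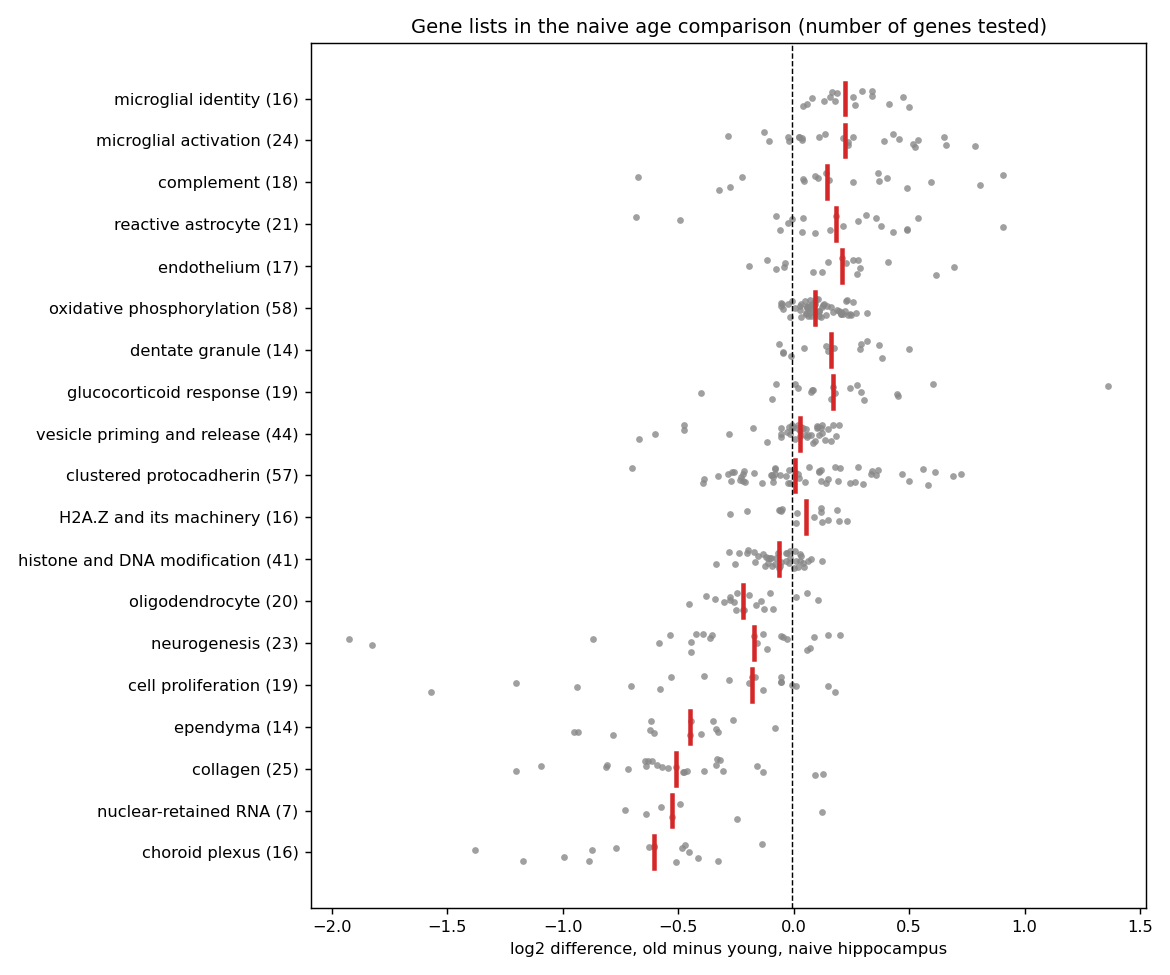
Log2 difference of old minus young naive hippocampus (horizontal axis) for the tested members of 19 gene lists. Each grey dot is a gene, the red bar is the list's median and the dashed line the median of all genes. Microglial identity lies wholly to the right, choroid plexus and ependyma wholly to the left, and 23 of 25 collagens to the left.

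Clustered protocadherins, cell surface proteins whose combinations give neurons an identity, did not move as 1 family. Of 57 tested genes 29 stood higher and 28 lower (median 0.01, and -0.023 without old library 69), and Pcdhb9 passed. By subfamily, a split made after the values were seen, 19 of 21 beta genes stood higher, with a median of 0.28, 8 at an unadjusted p under 0.05 and 9 with all old above all young libraries. Of all genes, 5.00% stood higher at that p and 7.09% were separated upward. The libraries of 1 beta gene, Pcdhb22, were separated downward (log2 -0.23). Pcdhb2 stood at 13.8, 10.8 and 10.8 CPM in old and 6.36, 8.09 and 6.95 CPM in young libraries (log2 0.72, SE 0.137, edgeR adjusted p = 0.0912), and Pcdhb3 at 12.8, 12.5 and 11.1 against 7.85, 8.17 and 8.27 CPM (log2 0.58, SE 0.124). Of 14 alpha genes 3 stood higher (median -0.12), and of 22 gamma genes 7 (-0.06). Within the gamma genes Pcdhga2 stood at 21.3, 22.4 and 27.1 against 12.6, 15.4 and 15.6 CPM (log2 0.69, SE 0.126, edgeR adjusted p = 0.0691). Pcdha7 had the lowest value of the family, at 4.65, 5.04 and 5.65 against 7.85, 8.40 and 8.60 CPM (log2 -0.70). In conditioned mice 18 of the 21 beta genes were again higher in old libraries (median 0.18), with 9 separated upward and 0 downward. Beta genes resemble each other closely, and alpha and gamma genes each share their last exons, so single values of the family carry the uncertainty of how shared reads were counted.

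**Figure D3:**
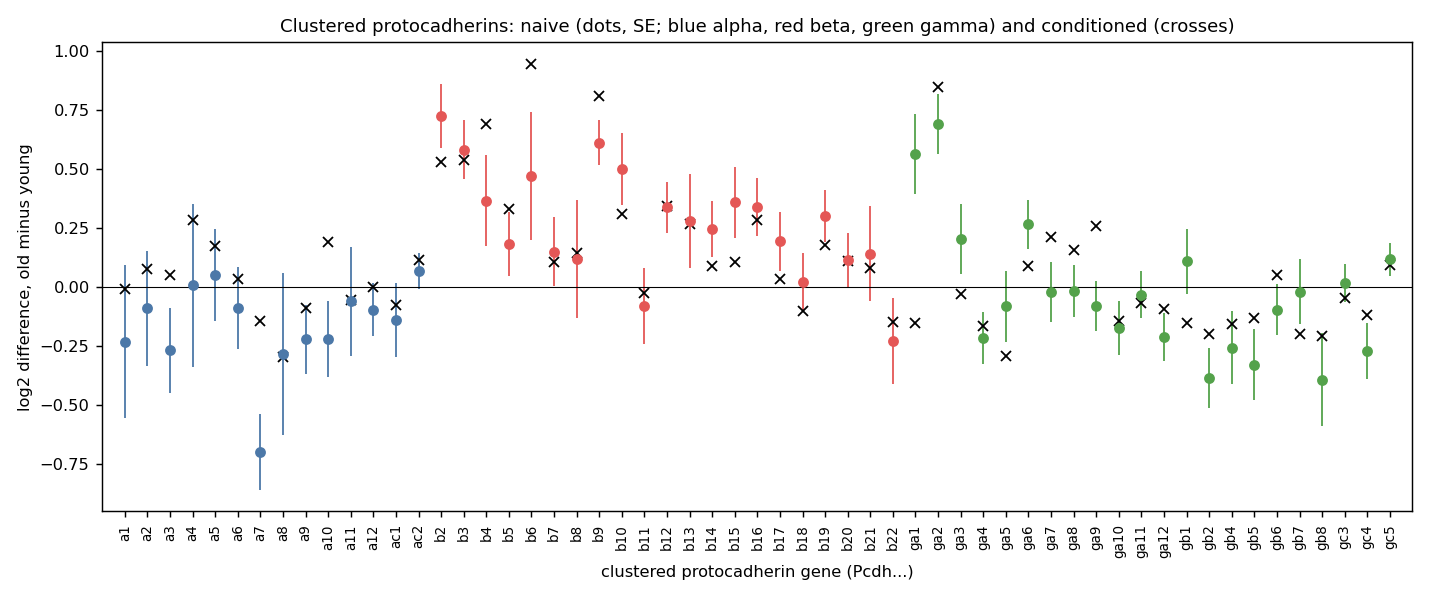
Log2 difference of old minus young (vertical axis) for 57 clustered protocadherin genes ordered by name. Dots with SE are naive mice, blue for alpha, red for beta and green for gamma genes, and crosses are conditioned mice. Most red dots lie above 0, and Pcdhb9, at 0.61 in naive mice, is the one that passed.

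Around Unc13b and Kcnt1 more genes of their groups stood higher than lower, and around Nup188 more stood lower. Of 44 genes of vesicle priming and release 28 stood higher and 16 lower (median 0.03). The second largest fall in p was that of a paralog, Unc13c, with 17.0, 23.9 and 16.3 CPM in old and 28.2, 37.8 and 24.7 CPM in young libraries (log2 -0.67, SE 0.171, edgeR adjusted p = 0.240), whereas Unc13a, the main isoform of excitatory synapses, had -0.06. Release genes such as Rph3a and Cplx2 stood slightly higher, at 0.17 and 0.16, with all old libraries above all young ones. Of 51 potassium channel genes 31 stood higher (median 0.03), and Kcnt2, the closest relative of Kcnt1, had -0.02. Among 30 nuclear pore genes 19 stood lower, with a median of -0.03, and Nup210 had -0.25 and Nup160 -0.29 after Nup188. At an unadjusted p under 0.05 there were 3 lower and 0 higher, against 5.28% and 5.00% of all genes. The libraries of 5 were separated downward and of 0 upward, against 6.35% and 7.09% of all genes. Without old library 71, 23 of 30 stood lower (median -0.081), and with the nuclear RNA score in the fit 15 did (-0.0023).

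Genes of newborn neurons stood lower in old naive mice. Of 23 neurogenesis genes 18 had a negative difference (median -0.17), with 9 lower and 0 higher at an unadjusted p under 0.05. edgeR and limma voom called 0 and DESeq2 2. The median was -0.29 without old library 67, -0.27 without old library 69 and -0.30 without young library 83. Dcx, doublecortin, a microtubule protein of migrating neuroblasts, stood at 17.6, 25.2 and 23.6 CPM in old and 34.4, 29.3 and 35.7 CPM in young libraries (log2 -0.58, SE 0.141, edgeR adjusted p = 0.201). Dpysl3, a cytoskeletal protein of growing axons, stood at 65.2, 62.4 and 58.2 against 82.8, 76.1 and 79.1 CPM (log2 -0.36, SE 0.0703, edgeR adjusted p = 0.103), and its relative Dpysl5 had -0.42. The transcription factor Sox4 stood at 13.4, 12.5 and 11.7 against 17.2, 16.8 and 14.5 CPM. In all 4 genes every old library was below every young one.

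Dividing cells are few in this tissue, and their genes also stood lower, at very low levels. Mki67, the proliferation antigen Ki-67, stood at 1.104, 0.917 and 0.717 CPM in old and 1.59, 3.51 and 2.98 CPM in young libraries (log2 -1.57, SE 0.333, edgeR adjusted p = 0.138). Top2a, a topoisomerase of dividing cells, stood at 1.34, 0.734 and 0.359 against 2.23, 1.76 and 1.82 CPM (log2 -1.20). The mitotic genes Bub1 and Kif11 had -0.94 and -0.70. Of 19 tested genes of the list 16 stood lower (median -0.18) and 4 of them had an unadjusted p under 0.05. edgeR, DESeq2 and limma voom called 0. 7 further members had too few counts for a test. Of the replication factors, Mcm3, Mcm5, Mcm6 and Mcm7 lay near 0, between -0.06 and 0.01, and Mcm2 stood higher in old libraries, at 0.18.

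Collagens, the fibrous proteins of vessel walls and meninges, stood lower in old mice for nearly the whole list. Of 25 genes 23 stood lower in old libraries, with a median of -0.51. At an unadjusted p under 0.05, 11 were lower and 0 higher, against 5.28% and 5.00% of all genes. In 7, all old libraries lay below all young ones, as in 6.35% of all genes. In 1, Col25a1, all old libraries lay above all young ones (log2 0.13). edgeR, DESeq2 and limma voom called 0. Col3a1, a fibrillar collagen, stood at 0.473, 1.01 and 0.897 CPM in old and 1.80, 2.14 and 1.49 CPM in young libraries (log2 -1.20, SE 0.373). Col5a1 stood at 5.84, 6.24 and 4.30 against 10.1, 8.32 and 10.4 CPM (log2 -0.81, SE 0.213, edgeR adjusted p = 0.260). Col1a2 overlapped between the ages, since old library 69 held 6.79 CPM and young 79 only 6.68 CPM. Collagen levels also moved with the choroid plexus markers: library 69 led the old and library 81 the young group in both. With the choroid score in the fit 21 of 25 stayed lower, with a median of -0.41, and without young library 81 20 did (-0.47). Meningeal and fibroblast markers had a median of -0.29, with 11 of 13 lower, and -0.10 without young library 81.

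Tenascin C, encoded by Tnc, is a matrix protein made by astrocytes and precursors. It stood at 6.63, 5.59 and 5.47 CPM in old and 9.86, 14.97 and 9.43 CPM in young libraries (log2 -0.96, SE 0.188, edgeR adjusted p = 0.103). Of 25 brain matrix genes 15 stood lower and 10 higher (median -0.06, and -0.0039 without young library 81). Hapln4, a link protein of the nets around neurons, had 0.17 and the proteoglycan Gpc6 -0.41, so the list held both directions. Flna, the actin cross-linker filamin A, stood at 43.2, 57.4 and 61.1 CPM against 77.8, 75.5 and 80.5 CPM (log2 -0.53, SE 0.112, edgeR adjusted p = 0.138).

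**Figure D4:**
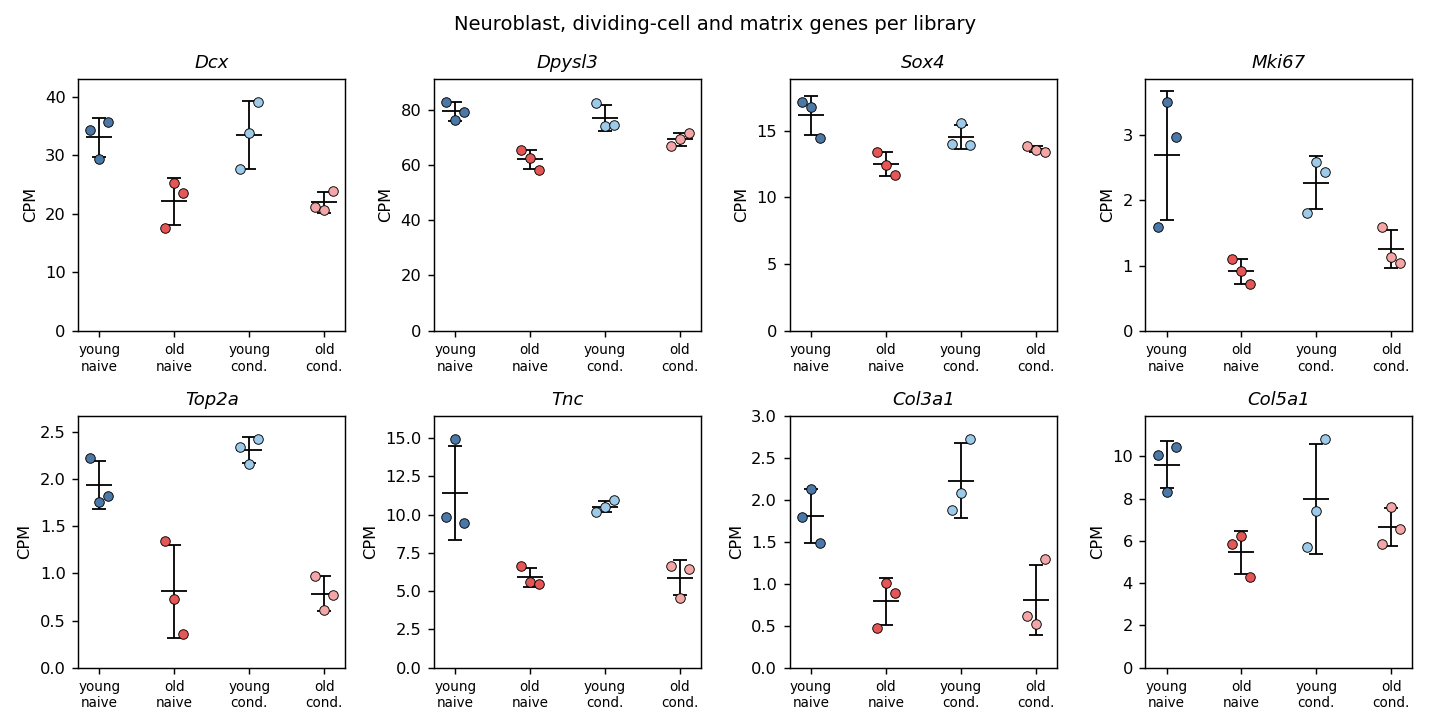
CPM per library (vertical axis from 0) of neuroblast genes (Dcx, Dpysl3, Sox4), dividing-cell genes (Mki67, Top2a) and matrix genes (Tnc, Col3a1, Col5a1) in the 4 groups, with mean and SD of 3 libraries. In naive mice each old library lies below each young one for all 8 genes, none of which passed the test, and Mki67 stays under 3.6 CPM throughout.

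Further genes of several kinds, all without overlap between the ages, were among the next by p and did not pass. Their edgeR adjusted p ran from 0.0949 for Myt1 to 0.199 for Kbtbd11. Among those higher in old mice were Luzp2, with 197, 175 and 191 CPM against 141, 144 and 157 CPM (log2 0.35), Gabra5, a GABA-A receptor subunit of hippocampal neurons, with 0.28, the chloride channel family gene Clic5 with 0.73 and the actin-associated gene Fam107a with 0.28. Kbtbd11 (0.26) and the pseudogene Pisd-ps1 (0.57) complete the 12 that followed the rises. Lower in old mice were Myt1, a zinc finger factor of the neural and oligodendrocyte lineages, with 25.2, 23.1 and 25.9 CPM against 37.7, 33.0 and 39.0 CPM (log2 -0.56, SE 0.107, edgeR adjusted p = 0.0949), and Nfasc, neurofascin of nodes and axon initial segments, with 348, 334 and 334 against 397, 399 and 411 CPM (log2 -0.25, edgeR adjusted p = 0.103). The T-type calcium channel Cacna1g had -0.42, the synaptic adhesion gene Igsf9b -0.57, the checkpoint gene Rad1 -0.64, the retinol dehydrogenase Rdh10 -0.53, the pseudogene Slc2a4rg-ps -1.19 and Dlec1 -0.98. Dnah2, a dynein of motile cilia, stood at 5.92, 6.42 and 8.34 against 10.3, 11.6 and 12.8 CPM (log2 -0.75, SE 0.159).

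Myelin and ventricle markers stood lower in old libraries, and within each age the library highest in choroid plexus markers, old 69 and young 81, was also highest in these. Of 20 oligodendrocyte markers 17 stood lower (median -0.22), 4 of them at an unadjusted p under 0.05. All 14 ependymal markers stood lower (median -0.45), and all 16 choroid plexus markers (median -0.61), 0 of the latter at an unadjusted p under 0.05. Ttr, transthyretin, the most abundant of them, ran from 117 to 1645 CPM in old and from 149 to 2857 CPM in young libraries. Without young library 81 the choroid median was 0.16, the ependymal median -0.19 and the oligodendrocyte median -0.11. Without young library 79 they were -1.03, -0.68 and -0.34. The choroid median was also -1.61 without old library 69, -0.38 without old library 67 and -0.18 without old library 71. The calls for these 3 lists were 0 in edgeR, DESeq2 and limma voom.

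Endothelial and energy metabolism genes stood higher in old mice, and markers of mural cells, the contractile cells of vessel walls, did not. Of 17 endothelial markers 12 stood higher (median 0.21), led by Ly6c1 at 11.8, 11.8 and 12.7 CPM against 9.22, 4.96 and 8.52 CPM (log2 0.69, SE 0.172) and with Pecam1 at 0.41 and the growth factor receptor Flt1 at 0.23. The median was 0.12 without young library 83. Of 11 mural cell markers 8 stood lower (median -0.11), and unadjusted p was under 0.05 for 1 higher and 1 lower gene. The smooth muscle genes Acta2, Tagln and Myh11 had -0.61, -0.66 and -0.47, and Rgs5, a pericyte gene, had 0.23. The mural median was 0.014 without young library 83, -0.0051 without old library 67, -0.24 without old library 69 and -0.27 without young library 79. Of 58 nuclear genes of oxidative phosphorylation 51 stood higher, by little: the median was 0.09 and the range -0.05 to 0.32. Cyc1, cytochrome c1, stood at 95.7, 107 and 94.9 against 86.0, 87.4 and 79.8 CPM (log2 0.23), and 9 genes of the list had an unadjusted p under 0.05, all higher. With the nuclear RNA score in the fit 41 of the 58 stayed higher, with a median of 0.05. The calls for these 3 lists were 0 in edgeR, DESeq2 and limma voom.

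Nuclear-retained RNAs stood lower, 6 of 7, with a median of -0.53. Meg3, a noncoding RNA of neurons, held 1031, 1231 and 1684 CPM in old and 2919, 1196 and 2429.9 CPM in young libraries. Young library 81 was at the old level, and no member separated the ages, although 5 had an unadjusted p under 0.05. The median was -0.82 without old library 71 and -0.32 without young library 79.

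Among markers of hippocampal neurons, those of dentate granule cells had the highest median. Of 14 dentate markers 10 stood higher (median 0.16), 6 at an unadjusted p under 0.05. C1ql3, a secreted synapse organizer, stood at 217, 198 and 227 against 181, 174 and 170 CPM (log2 0.29, SE 0.0774, edgeR adjusted p = 0.273), and Fam163b at 124, 146 and 183 against 109, 120 and 119 CPM (log2 0.37). Old library 71 was highest in both. Without it 8 of the 14 stayed higher (median 0.11), and without old library 69 or young library 81 it was 13 and 12 (0.25 and 0.24). CA1 and CA2 to CA3 pyramidal markers had medians of 0.01 and 0.03, interneuron markers 0.05. Without old library 69 the CA1 median was -0.055, and without old library 71 the CA2 to CA3 median was -0.015. The interneuron median was 0.0094 without old library 69. Over the 23 other settings its lowest value was -0.0092, and its sign stayed in 22 of them. Among interneuron genes Npy stood at 25.7, 28.4 and 22.6 against 21.8, 16.4 and 21.7 CPM (log2 0.36). Receptors for glutamate and GABA were balanced, 18 of 35 higher.

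The differences of the activity genes Fos and Arc rested on single libraries, and those of glucocorticoid genes were weaker without some. Fos, the classical marker of recent neuronal activity, stood at 5.76, 4.22 and 2.87 CPM in old and 10.2, 2.44 and 2.81 CPM in young libraries. Its log2 difference of -0.17 became 0.72 without young library 79, and that of Arc went from -0.20 to 0.33. Of 19 genes that respond to glucocorticoids 16 stood higher (median 0.17), and old library 71 was high in several: Sgk1, a kinase induced by the hormone, stood at 58.1, 59.3 and 110 against 53.8, 53.8 and 58.6 CPM, and Plin4 at 1.66, 2.11 and 8.79 against 1.17, 1.68 and 1.90 CPM. Without library 71 the median was 0.07, and without young library 81 it was 0.09. It stayed positive under all 23 other settings.

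Chromatin genes bear on the study's subject, the histone variant H2A.Z. H2afz, its main gene, stood at 84.0, 79.3 and 83.7 CPM in old and 70.3, 74.5 and 70.8 CPM in young libraries. The difference was small and without overlap (log2 0.20, SE 0.0635, edgeR adjusted p = 0.320). H2afv, the second gene of the variant, had 0.12. Of 16 genes of H2A.Z and its machinery 10 stood higher (median 0.05, and 0.11 without young library 79 or 0.024 without old library 67), among them the removal chaperone Anp32e at 0.19 and Ruvbl1 at 0.23, while the scaffold Trrap had -0.20. Of 41 enzymes of histone and DNA modification 29 stood lower (median -0.06, and -0.027 without old library 69 or -0.035 without young library 79), 6 lower and 0 higher at an unadjusted p under 0.05. The clearest were Tet1, a DNA demethylation enzyme, at 29.0, 26.0 and 25.5 against 36.8, 31.9 and 33.3 CPM (log2 -0.34), and the DNA methyltransferase Dnmt3a at -0.25. The calls for both lists were 0 in edgeR, DESeq2 and limma voom.

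The conditioned libraries give a second view of age with no library in common. Their edgeR test called 5 genes higher in old mice (0.0347%) and 0 lower (0%). Without adjustment, p was under 0.05 for 897 higher (6.23%) and 1029 lower genes (7.14%). DESeq2 called 106 genes in either direction there, 1 of them among the 5. Genes that DESeq2 left without an adjusted p counted as not called, and why the others of the 5 were not called was not tested. In edgeR, C4b, Pcdhb9 and BC061194 passed in both conditions. The other 2 were Pcdhga2 and Pisd-ps1, at 0.69 and 0.57 in naive and 0.85 and 0.87 in conditioned mice. C4b held 66.7, 64.7 and 59.8 CPM in the old and 28.2, 35.9 and 28.9 CPM in the young conditioned libraries (log2 1.04). Of the 8 genes 7 had the same sign in conditioned mice and did not overlap there, as 11.3% of all genes did upward and 11.8% downward. 6 of them had an unadjusted p under 0.05. Across the 14405 genes the log2 differences of both conditions had a Pearson correlation of 0.37 and a Spearman correlation of 0.26, where genes are not independent replicates.

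Kcnt1 was the exception. Conditioned libraries held 35.8, 36.3 and 34.3 CPM in old and 29.1, 32.2 and 34.3 CPM in young mice, a difference of 0.16 in place of -0.61. The difference between both age effects was -0.77 (SE 0.138, edgeR adjusted p = 0.607). Nup188 and Unc13b had -0.10 and -0.27 in conditioned mice. In the test of that difference edgeR called 0 of 14405 genes (0%) and DESeq2 1. Unadjusted, 1037 had a p under 0.05 in edgeR (7.20%). Among the lists, medians in conditioned mice were 0.21 for microglial identity, -0.11 for neurogenesis, -0.28 for proliferation, -0.33 for collagens and 0.21 for endothelium. The choroid plexus median was -2.85, with all 16 markers lower at an unadjusted p under 0.05, and that of meninges and fibroblasts -0.63. How far other lists followed this imbalance in conditioned mice was not tested. Oligodendrocyte and glucocorticoid medians were -0.04 each in conditioned mice, against -0.22 and 0.17 in naive mice. The dentate median was -0.11 there, against 0.16 in naive mice, and 6 of the 14 genes had an unadjusted p under 0.05 for the difference. Dcx had -0.60, close to its naive value, and Gfap 0.32.

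**Figure D5:**
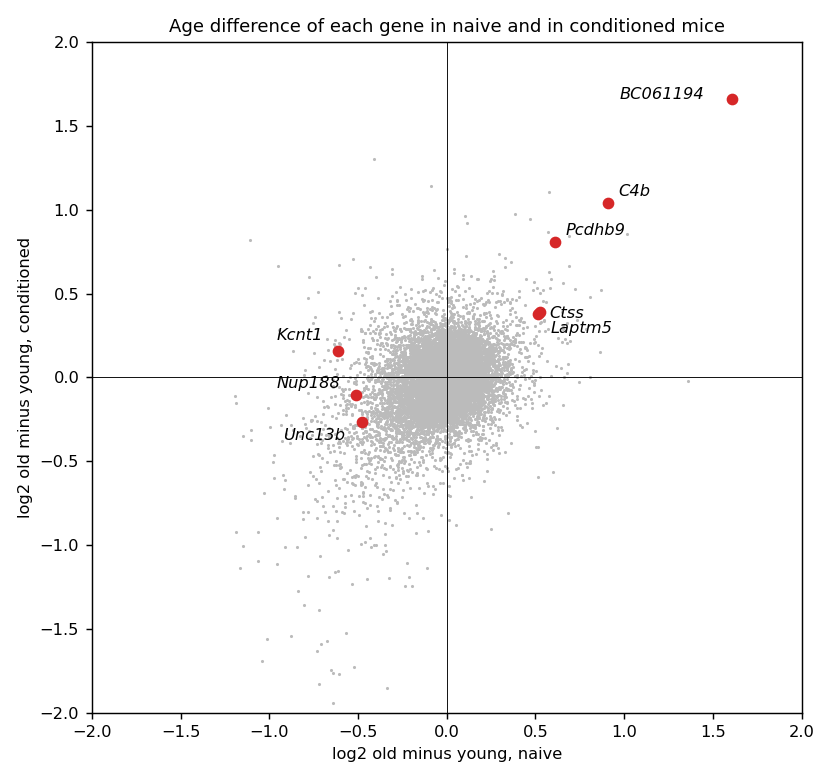
Log2 difference of old minus young in naive (horizontal) and in conditioned mice (vertical) for 13008 genes with a mean log2 CPM of at least 1, 19 of which lie outside the plotted range. Red points are the 8 genes that passed in naive mice. C4b, Pcdhb9 and BC061194 lie high in both, and Kcnt1 lies at -0.61 and 0.16.

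H2A.Z was mapped in other libraries from naive mice of both ages, and the authors' deposited table gives log2 differences per peak on mm10, without values per library. They are turned here to old minus young. Of its 20213 peaks 0 had an FDR under 0.05 (smallest 0.209) in the authors' deposited table, and 2390 were higher and 52 lower at p under 0.05. The median was 0.33 over all peaks and 0.44 over the 12204 within 1 kb of a start, and since group levels and differences in that table disagree by a constant 0.334, their centre is uncertain. Of the 14405 genes 10817 (75.1%) had such a promoter peak assigned to them in the authors' deposited table, not counting peaks assigned to a neighbour. Among genes at an unadjusted RNA p under 0.05 it was 74.0% of those higher and 70.7% of those lower in old mice, with median H2A.Z differences of 0.50 and 0.42. These medians take 1 promoter peak per gene, that with the highest level, whereas the 0.44 is over all promoter peaks. Across genes the Spearman correlation of RNA and H2A.Z differences was 0.07.

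Among the genes that passed, some had promoter H2A.Z and some had none. In the authors' deposited table the peak at Unc13b, chr4:43058798-43059708, over the sequence printed above, was called in all 3 libraries of either age and had a difference of 0.67 (p = 0.0829, FDR 0.495). The peak over the Nup188 start, chr2:30285656-30286955, is assigned there to its neighbour Dolk and had 0.49 (FDR 0.750). Kcnt1 had 2 promoter peaks in the authors' deposited table, at 0.79 and 0.85, and BC061194 1 peak at 0.20. No peak within 1 kb was assigned to C4b, Pcdhb9, Laptm5 or Ctss. For C4b and Pcdhb9, peaks assigned to a neighbour, as at Nup188, were not searched by position. The peak nearest to the Ctss window lay 1654 bp away, called in 1 old and 0 young libraries. Differences at Unc13b, Kcnt1 and Nup188 were thus positive while their RNA fell, and so was the median of all promoter peaks.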

How the data were processed

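RNA was sequenced from the hippocampus, and the authors deposited unnormalized whole-number counts for each gene symbol. Per the submitters' processing notes the tools included Trim Galore 0.4, Bowtie2 2.2.1, TopHat and HTSeq 0.6.1p2, with builds mm9 and mm10. No source used here gives their roles, the gene annotation or whether counting used strand, so overlapping genes cannot be told apart by strand. Of H2A.Z, the authors deposited 1 peak table with log2 folds and levels, p-values and FDR, how many libraries had each peak, and its distance to a gene start in bp. It was used as deposited.

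The 12 RNA libraries, 3 for each of 4 groups, were fitted together in R 4.3.3 with edgeR 4.0.16 (TMM, filterByExpr, quasi-likelihood, Benjamini-Hochberg over all tested genes at 0.05), since 4 groups give a steadier estimate of spread than 2. Standard errors come from the F statistic, and log2 CPM carries a prior count of 2. The scripts were tested on simulated data. Named are all genes that passed, the next 12 in each direction by p with non-overlapping libraries and a mean log2 CPM of at least 1, up to 4 members of each list by p, and Gfap, C4b, H2afz, H2afv, Dcx, Fos, Arc, Ttr and Malat1. Other genes named, Trem2, Tyrobp, Apoe, Axl, C3, C4a, Dolk, Fcer1g, C3ar1, C1qc, Kcnt2, Unc13a, Slc17a7, Pcdha7 and the Mcm genes, were chosen after their values were seen. So were Pcdhb22 and Col25a1. The groups, gene lists and rules were chosen with earlier results of these data known. Other settings were DESeq2 1.42.0, limma 3.58.1 (voom), other scalings and filters, 2 covariates, a fit of 6 libraries and each library left out. 2 settings were added after seeing the data. Figures and H2A.Z summaries used Python 3.11.15, pandas 2.3.3 and matplotlib 3.10.9. A few results are not reported here.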

Additional observations from a re-analysis of the deposited data

How the results depend on the processing

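No paired analysis was possible because each RNA library has a number of its own, shared with no other group. 5 genes rose and 3 fell with age in naive mice. DESeq2 gave 16 and 18, no filter on low counts 11 and 15, a fit of only the 6 naive libraries 1 and 0, the choroid score as covariate 8 and 10, the nuclear RNA score 8 and 4, and limma voom 3 and 2. The genes called with the nuclear RNA score included 4 of the 5 rises but only 1 of the 3 falls. RLE and upper-quartile factors and a mean CPM of at least 1 each gave 4 and 3. Leaving out 1 library gave 1 to 8 rises and 0 to 14 falls. The settings without young naive 79 and 81 (0 and 0) and without old naive 69 and young naive 81 (6 and 5) were chosen after seeing the data. Without old naive 69 and young naive 81, the called genes included 2 of the 5 rises and 2 of the 3 falls. In conditioned mice 5 genes changed, 106 with DESeq2, 3 with the choroid score, and 2 to 7 with 1 library left out. The difference between conditions had 0 calls in edgeR and 1 in DESeq2. The cause of these shifts was not tested, and the smaller fits also hold fewer libraries.

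None of the 8 genes turned its direction. Among named genes that had not passed, the sign turned for Malat1 with the nuclear RNA score (0.067), for Ttr with the choroid score (0.10), for Fos with the nuclear RNA score and with limma voom (0.13 each) and for Hba-a2 with limma voom (-0.052). Without young naive 79 and 81 it turned for Lef1 (0.051), Arc (0.39) and Fos (0.62), and without old naive 69 and young naive 81 for Pou3f1 (-0.0075) and H2-D1 (-0.024). With 1 library left out, H2-D1 ran from -0.029 (without old 69) to 0.32, Tmem72 from -2.51 to 0.17, Cdh1 from -1.60 to 0.088 and Ttr from -2.17 to 0.23 (upper ends without young 81), Hba-a2 from -0.13 to 1.22 and Alas2 from -0.58 to 0.79 (lower ends without old 71), and Arc from -0.44 to 0.33 and Fos from -0.52 to 0.72 (upper ends without young 79). No scaling moved the median of all genes by more than 0.1. Genes near 1 CPM such as Mki67 or Col3a1 rest on few reads a library.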

Other observations

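3 genes outside the lists were chosen after their values were seen, because they were low, and stand for no group. Wdr52 stood at 9.54, 11.6 and 10.8 CPM in old and 15.7, 19.6 and 13.8 CPM in young libraries (log2 -0.63), Wdr78 at 13.6, 14.03 and 11.7 against 21.4, 17.9 and 16.8 CPM (-0.50), and Ttll3, which modifies tubulin, at 7.18, 9.35 and 9.95 against 13.995, 13.2 and 12.8 CPM (-0.60). In conditioned mice the differences were -0.61, -0.29 and -0.10.

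3 further genes stand out by their values. Onecut1, a transcription factor gene, stood at 3.47, 2.38 and 4.57 CPM in old and 0.954, 1.22 and 0.744 CPM in young libraries (log2 1.82, edgeR adjusted p = 0.0691), and had 1.24 in conditioned mice. Ipw, a noncoding RNA of the imprinted Prader-Willi region, stood at 89.1, 103 and 140 against 198, 163 and 182 CPM (log2 -0.71, edgeR adjusted p = 0.163), without the overlap that Meg3 and Malat1 showed. Casp1, the protease of the inflammasome, differed in opposite directions: 1.03, 1.56 and 1.17 CPM in old against 1.91, 2.29 and 1.57 CPM in young naive libraries, and 1.503, 2.97 and 2.07 against 0.905, 0.583 and 1.11 CPM in conditioned ones (log2 -0.63 and 1.34). It was 1 of 128 genes without overlap in both conditions and with opposite signs, none of which passed the edgeR test of the difference (smallest adjusted p 0.680). Of the 14405 genes tested, 210 were higher and 187 lower in both conditions without overlap. Within naive mice alone 7.09% of all genes were separated upward and 6.35% downward, and within conditioned mice alone 11.3% and 11.8%. How many of the 128, 210 and 187 genes such shares alone would give was not tested.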
